A study of Homo sapiens with 12 samples.

Results

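Haem is assembled by a chain of enzymes that begins and ends in the mitochondrion. The genes of 8 of these enzymes, ALAS1, ALAS2, ALAD, UROS, UROD, CPOX, PPOX and FECH, were picked by symbol from the 25146 genes of an RNA sequencing table, and all 8 were found. The enzyme that acts between ALAD and UROS is not in the list and was not analysed here. The libraries came from 2 human cell lines of T-cell acute lymphoblastic leukaemia (T-ALL), a cancer of immature T cells, named Jurkat and Molt-4 in the growth protocol. There were 4 groups of 3 libraries each. They were Molt-4 with chidamide, Molt-4 without it, Jurkat with chidamide and Jurkat without it. Chidamide, also known as tucidinostat, is a benzamide inhibitor of class I histone deacetylases. It was used at 2 µM for 48 h per the protocol, while the treated libraries carry 48, 49 and 50 h in step with their replicate numbers, so time and replicate cannot be told apart. All cells grew in RPMI medium with serum, and the labels name no vehicle for the untreated cells. Each T-ALL line is 1 model, a description field names peripheral blood for every library, and whether replicates were grown apart is not stated, so p-values rest on the spread among these libraries alone, which may be technical.

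The first and rate-limiting step joins glycine and succinyl-CoA in the mitochondrial matrix. It is carried out by ALAS1 in most cells and by the isozyme ALAS2 in red cell precursors, where ALAS2 transcription is under the factor GATA1. ALAD, UROS and UROD then work in the cytosol and build the uroporphyrinogen and coproporphyrinogen rings, and CPOX, PPOX and the ferrochelatase FECH complete the pathway in the mitochondrion, where FECH inserts iron. T cells make haem mainly for cytochromes and other haem enzymes, whereas red cell precursors make it in bulk for haemoglobin.

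The values were FPKM, fragments scaled by gene length and by library size. Scaling by length lets genes be set side by side, but the steps from reads to FPKM are not given, so comparisons between genes are approximate. No read counts came with the values, and the depth is not known. The FPKM of a library summed to between 698435 and 869059, and 11643 to 13228 genes reached an FPKM of 1. Across genes, replicates had a Pearson r of 0.989 to 0.995 (log2(FPKM + 1)). Untreated Jurkat replicate 3 stood apart: the SD of its log2 ratios was 0.332 and 0.337 to its fellow replicates, while remaining pairs of replicates had 0.233 to 0.269. Untreated Molt-4 replicate 3 had 10.1% of its total FPKM in 7SL RNA genes, against 2.25% to 5.35% in the other libraries. Each list count was repeated without either library, and the value is given where it moved by more than 1.5 times.

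The labelled cell types were set against their markers before the enzymes were read. All 8 T-lineage markers (the CD3 genes CD3D, CD3E, CD3G and CD247, with CD2, CD5, CD7 and LCK) had a mean of at least 1 FPKM in every group. Their summed level was 689.1 to 724.9 FPKM in treated and 831 to 912 FPKM in untreated libraries labelled Molt-4, and 1186 to 1247 FPKM in treated and 2023 to 2064 FPKM in untreated Jurkat libraries. The erythroid markers (GYPB, EPOR, SLC4A1, EPB42, AHSP, RHAG and RHD) summed to 245 to 261 FPKM in treated and 125 to 152 FPKM in untreated libraries labelled Molt-4. In Jurkat the same 7 genes summed to 10.2 to 10.6 FPKM with chidamide and 7.12 to 8.23 FPKM without it, mostly from EPOR, and GYPB and the Rh-associated gene RHAG were listed at 0 in all 6 Jurkat libraries. The 10 globin genes summed to 25351 to 26021 FPKM in treated and 10438 to 11149 FPKM in untreated libraries labelled Molt-4, against 17.4 to 91.9 FPKM in treated and 19.0 to 29.5 FPKM in untreated Jurkat. Molt-4 is known as a T-lineage line, and globins are red cell genes, so the data go against that label in this respect. The libraries are called "labelled Molt-4" for this reason. In bulk RNA a change in the number of cells of a type and a change in RNA per cell cannot be told apart, nor can cells that express both programmes be told from a mixture of cells.

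**Figure D1:**
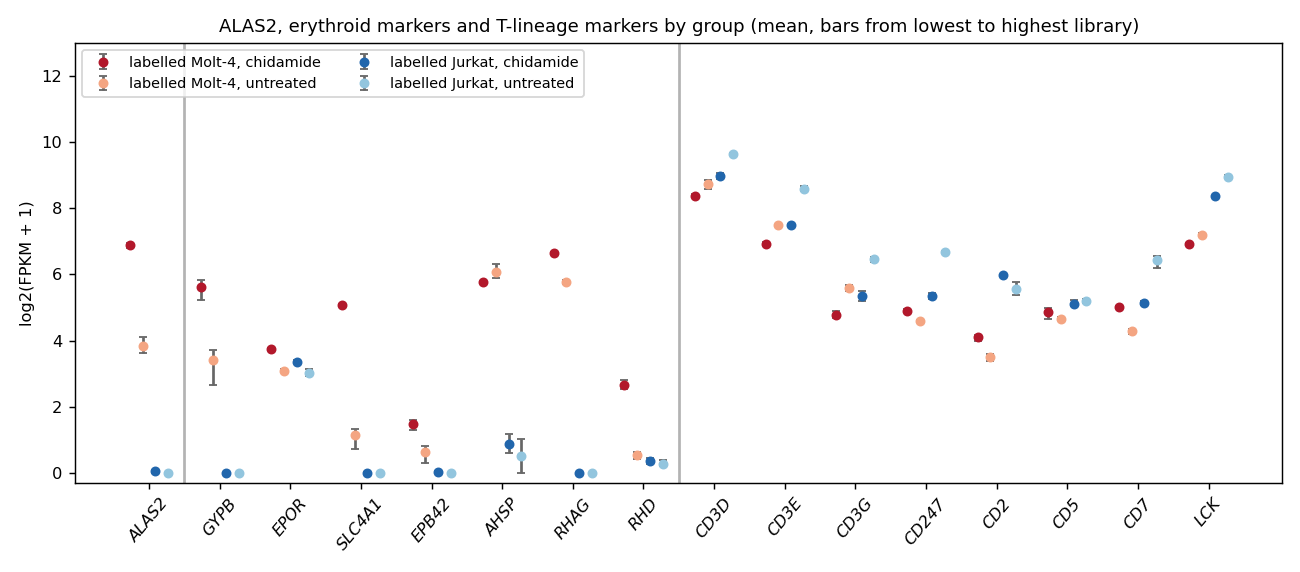
Levels as log2(FPKM + 1) of ALAS2, of 7 erythroid markers and of 8 T-lineage markers in the 4 groups (points are means of 3 libraries, bars run from the lowest to the highest library). ALAS2 and most erythroid markers are high only in the libraries labelled Molt-4, while T-lineage markers are present in every group.

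The isozyme genes ALAS2 and ALAS1 differed in behaviour, and CPOX, described further on, moved in opposite directions in the lines. The stretches upstream of these 3 genes are shown for this reason, each with 250 bases before and 30 bases after the annotated start, 5′ to 3′ on the gene's strand, from RefSeq on build GRCh38.p14. The study used hg19, and none of its values carry coordinates. Capitals mark, on either strand, the letters AGATAA (or with T in place of the first A), which GATA factors can bind, the letters CCAAT, the letters TGCGCA, part of the binding sequence of the factor NRF1, and the box TATAAA. ALAS2 lies on the minus strand of chromosome X (chrX:55030948-55031227), ALAS1 on the plus strand of chromosome 3 (chr3:52197833-52198112) and CPOX on the minus strand of chromosome 3 (chr3:98593582-98593861).
ALAS2: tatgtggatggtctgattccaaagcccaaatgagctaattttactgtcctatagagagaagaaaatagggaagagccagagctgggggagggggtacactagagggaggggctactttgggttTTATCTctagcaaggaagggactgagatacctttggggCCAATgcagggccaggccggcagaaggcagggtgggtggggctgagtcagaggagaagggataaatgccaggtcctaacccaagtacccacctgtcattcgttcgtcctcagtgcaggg
ALAS1: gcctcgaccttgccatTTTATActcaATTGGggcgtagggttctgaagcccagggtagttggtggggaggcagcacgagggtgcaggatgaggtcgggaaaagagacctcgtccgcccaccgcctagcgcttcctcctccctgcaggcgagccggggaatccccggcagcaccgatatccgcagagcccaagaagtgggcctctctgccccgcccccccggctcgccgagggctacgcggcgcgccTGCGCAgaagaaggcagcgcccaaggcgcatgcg
CPOX: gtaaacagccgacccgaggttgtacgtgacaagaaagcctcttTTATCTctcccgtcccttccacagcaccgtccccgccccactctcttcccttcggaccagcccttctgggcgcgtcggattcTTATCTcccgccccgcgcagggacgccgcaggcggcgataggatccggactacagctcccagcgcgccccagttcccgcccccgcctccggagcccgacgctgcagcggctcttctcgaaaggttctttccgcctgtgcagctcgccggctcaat

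Among 35116 promoter entries of 300 bases (250 before to 50 after a start), 16.3% held the GATA letters on either strand. Of the 7 enzyme genes with an entry, ALAS2 held it once (first base at -127 from the start), CPOX at 2 places (-207 and -125) and PPOX once in 1 of its 2 entries (-63). TGCGCA, present in 8.24% of entries, was found in ALAS1 alone, at -4 and at 27 after the start, the last running past the printed stretch. CCAAT was in 34.6% of entries and in those of ALAS1, ALAS2, ALAD and PPOX. TATAAA was in 11.5% of entries, and among the enzymes in ALAS1 alone, on the opposite strand at -234. CACGTG, the letters that MYC and MAX bind, was in 7.26% of entries and in none of the 9 entries of these genes. No promoter entry was found for UROS. These are matches of letters and say nothing of binding.

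The first enzyme showed the largest response of the pathway. ALAS2 had 123, 119 and 111 FPKM in treated libraries labelled Molt-4, against 16.4, 11.4 and 12.1 FPKM in untreated ones. The Jurkat libraries had 0.07, 0.04 and 0 FPKM with chidamide, and ALAS2 was listed at 0 in all 3 untreated libraries. Every treated library labelled Molt-4 lay far above every untreated one, and the Jurkat libraries were at or near 0 throughout. The mean level with chidamide was 8.83 times that without it in the libraries labelled Molt-4 (log2 change 3.07 ± 0.12 SE, limma adjusted p = 9.61e-10). All log2 changes here are differences of log2(FPKM + 1) fitted with limma over 13840 genes, which understate the change of low genes, and a gene counts as called when its adjusted p is under 0.05. In Jurkat the ALAS2 difference was not called (0.05 ± 0.12, adjusted p = 0.744). The difference between the responses was 3.01 ± 0.17 on the log2 scale (adjusted p = 1.31e-07), which restates the change in the libraries labelled Molt-4, since Jurkat lay at the floor with and without chidamide. ALAS2 passed the filter on low values only through the libraries labelled Molt-4. The gene APEX2 overlaps ALAS2 on the opposite strand and the strand setting of the counting is not stated. APEX2 averaged 15.9 and 13.5 FPKM in treated and untreated libraries labelled Molt-4 and 16.0 and 15.9 FPKM in treated and untreated Jurkat, where ALAS2 was near 0.

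Other red cell genes in the libraries labelled Molt-4 did not move by 1 factor. Of the 7 erythroid markers reported, 6 rose with chidamide there, where 35.4% of all genes tested were called higher and 24.6% lower. The ratio of treated to untreated means ran from 26.7 for SLC4A1, the band 3 anion exchanger, through 11.7 for the Rh blood group gene RHD and 1.86 for RHAG, to 1.66 for EPOR, among those that rose. The untreated means there were low for SLC4A1 (1.22 ± 0.486 FPKM) and RHD (0.453 ± 0.111 FPKM), so their ratios are uncertain. Those of RHAG and EPOR were 53.7 ± 2.41 and 7.55 ± 0.28 FPKM. AHSP, which encodes the chaperone of alpha globin, was at 53.9 ± 0.868 FPKM with chidamide and 66.0 ± 10.8 FPKM without it (SD, n = 3 each; limma adjusted p = 0.322). In Jurkat 1 of the 7 erythroid markers rose, the erythropoietin receptor gene EPOR (0.34 ± 0.079, adjusted p = 0.00294), a call lost under quantile normalization. Markers of other blood cells moved too. Their counts stand beside the same shares of all genes, which in Jurkat were 30.9% higher and 25.4% lower. LYZ, the lysozyme gene of myeloid cells, was at 62.9 ± 0.906 FPKM with chidamide and 0.677 ± 0.251 FPKM without it in the libraries labelled Molt-4 (5.26 ± 0.14, limma adjusted p = 7.71e-11), and CD33 at 20.9 ± 0.428 FPKM with it and 10.3 ± 0.92 FPKM without it. Of the 3 of 8 myeloid markers that were tested, 3 rose in the libraries labelled Molt-4 and 2 in Jurkat. The untested ones (CD14, CSF1R, MPO, FCGR1A and ELANE) averaged 0.423 FPKM or less in treated libraries labelled Molt-4. The summed level of all 8 was 89.0 to 90.2 FPKM in treated libraries labelled Molt-4, mostly from LYZ and CD33, and 11.4 to 11.99 FPKM in untreated ones. In Jurkat that sum was 1.51 to 4.66 FPKM with chidamide and 0.21 to 1.12 FPKM without it, with FCGR1A and ELANE at 0 in all 6 libraries. Of the B-cell markers 3 were tested, of which 2 rose in the libraries labelled Molt-4 and 2 fell in Jurkat. The sum of 5 B-cell markers was 16.2 to 19.9 FPKM in treated and 3.15 to 4.6 FPKM in untreated libraries labelled Molt-4, and 16.1 to 19.0 FPKM in treated and 35.4 to 43.9 FPKM in untreated Jurkat, with the defining gene MS4A1 at 0 in treated and untreated libraries labelled Molt-4 and in untreated Jurkat. T-lineage markers went both ways in the libraries labelled Molt-4 (3 of 8 rose and 4 fell) and mostly down in Jurkat (1 rose and 6 fell). The erythroid markers RHD, EPB42 and SLC4A1 would not have passed the filter on low values without the treated libraries labelled Molt-4. The same holds for LYZ, the myeloid marker ITGAM and the B-cell marker CD79B. A rise of these genes in that line was therefore in part fixed by the filter. The part of these cell types in the enzyme responses was not tested.

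ALAS1, the isozyme of most cells, moved little. It had 24.2, 25.9 and 26.5 FPKM in treated libraries labelled Molt-4 and 21.3, 23.8 and 21.9 FPKM in untreated ones. Jurkat had 27.2, 25.7 and 26.3 FPKM with chidamide and 24.0, 24.0 and 25.6 FPKM without it. The groups did not overlap in either line, but in Jurkat the lowest treated library lay only just above the highest untreated one. The rise was called in the libraries labelled Molt-4 (0.18 ± 0.064, adjusted p = 0.0251). It was lost without treated replicate 2 or 3 or untreated replicate 1 or 3 of that line (adjusted p = 0.0712, 0.0909, 0.0896 and 0.0708) and with median-of-ratios scaling (0.0855, range over all alternatives 0.0143 to 0.0909). The Jurkat difference of 0.10 ± 0.064 was not called (adjusted p = 0.196, with 0.0449 at equal totals without 7SL RNA, range 0.0449 to 0.399). Because ALAS2 rose and ALAS1 hardly moved, the ratio of ALAS2 to ALAS1 FPKM was 5.08, 4.6 and 4.18 in treated and 0.77, 0.478 and 0.554 in untreated libraries labelled Molt-4. Each treated library thus held more ALAS2 than ALAS1, and each untreated one less.

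**Figure D2:**
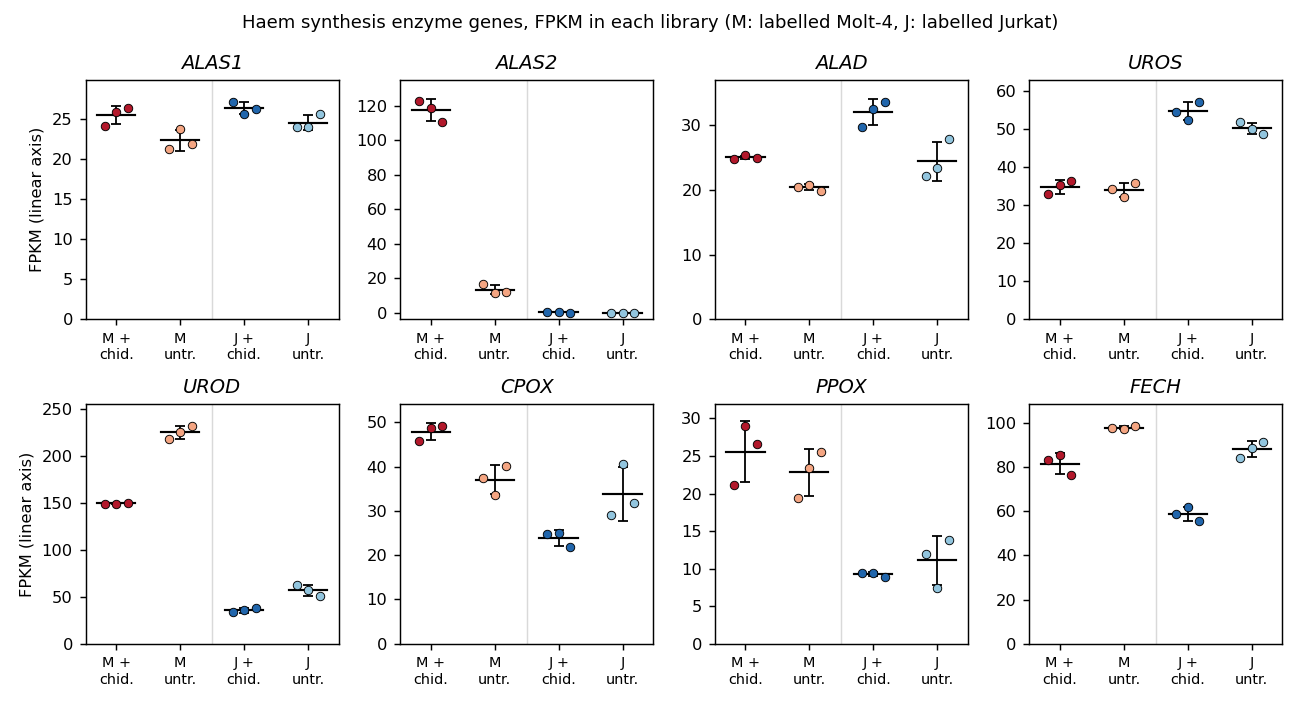
FPKM (linear axis) of the 8 haem synthesis genes in each of 12 libraries, in the order treated and untreated labelled Molt-4 (M) and treated and untreated Jurkat (J), with a line at each group mean and bars of 1 SD (n = 3). ALAS2 stands at 111 to 123 FPKM in treated libraries labelled Molt-4 and at or near 0 in Jurkat, and UROD is lower with chidamide in both lines.

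Of the cytosolic enzymes, ALAD rose and UROD fell in both lines. ALAD, which joins molecules of aminolevulinic acid into porphobilinogen, had 24.8, 25.3 and 24.9 FPKM in treated and 20.5, 20.8 and 19.9 FPKM in untreated libraries labelled Molt-4. In Jurkat it had 29.7, 32.5 and 33.6 FPKM with chidamide and 22.1, 23.3 and 27.8 FPKM without it. It was higher in every treated library than in any untreated one of the same line, and untreated Jurkat replicate 3 was the highest of its group. ALAD rose by 0.28 ± 0.081 in the libraries labelled Molt-4 (adjusted p = 0.00928) and by 0.38 ± 0.081 in Jurkat (adjusted p = 0.0016), and both calls held under each of the alternatives run.

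UROD, uroporphyrinogen decarboxylase, carried the largest fall of the pathway in both lines. It had 149.5, 149.6 and 150.4 FPKM in treated libraries labelled Molt-4, against 218, 226 and 232 FPKM in untreated ones. In Jurkat it had 33.4, 35.6 and 38.6 FPKM with chidamide, against 62.6, 57.0 and 51.3 FPKM without it. The treated libraries were lower in each line with no overlap. UROD fell by 0.59 ± 0.071 in the libraries labelled Molt-4 (adjusted p = 1.9e-05) and by 0.65 ± 0.071 in Jurkat (adjusted p = 8.89e-06). The difference between the responses, Molt-4 minus Jurkat, was 0.07 with a 95% interval of -0.15 to 0.29. The mean with chidamide was 0.664 of that without it in the libraries labelled Molt-4, and 0.629 in Jurkat.

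UROS, uroporphyrinogen III synthase, which closes the ring, was not called for chidamide in either line. It had 33.0, 35.4 and 36.4 FPKM in treated and 34.4, 32.2 and 35.8 FPKM in untreated libraries labelled Molt-4, which overlap. Jurkat libraries had 54.6, 52.6 and 57.4 FPKM with chidamide and 51.9, 50.2 and 48.8 FPKM without it, which do not. The log2 differences were 0.03 (95% interval -0.10 to 0.17) and 0.12 (95% interval -0.01 to 0.26). The Jurkat difference was called under quantile normalization (adjusted p = 0.00275) and at equal totals without 7SL RNA (0.0103, range 0.00275 to 0.297). The sign in the libraries labelled Molt-4 turned under median-of-ratios scaling and without untreated replicate 2 of that line.

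Among the mitochondrial enzymes, CPOX, coproporphyrinogen oxidase, rose in one line and fell in the other. It had 45.8, 48.7 and 49.2 FPKM in treated libraries labelled Molt-4, against 37.4, 33.6 and 40.3 FPKM in untreated ones. In Jurkat it had 24.8, 25.1 and 21.9 FPKM with chidamide, against 29.1, 40.7 and 31.9 FPKM without it. Treated libraries were all higher than untreated ones in the first case and all lower in the second, and untreated Jurkat replicate 2 was well above its group. CPOX rose by 0.36 ± 0.11 in the libraries labelled Molt-4 (adjusted p = 0.013) and fell by 0.47 ± 0.11 in Jurkat (adjusted p = 0.003). The responses differed by 0.83 ± 0.16 (adjusted p = 0.00159, range 0.00073 to 0.00566). The rise in the libraries labelled Molt-4 was lost without their untreated replicate 2 (adjusted p = 0.0575, range 0.00225 to 0.0575). CPOX overlaps AC021660.3, annotated as protein-coding, on the same strand. That gene has no values here, so its part in the reads of CPOX is not known.

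FECH, which inserts iron into protoporphyrin, fell in both lines. It had 83.1, 85.4 and 76.4 FPKM in treated libraries labelled Molt-4, against 97.6, 97.5 and 98.7 FPKM in untreated ones. In Jurkat it had 58.6, 62.1 and 55.8 FPKM with chidamide, against 84.4, 88.5 and 91.5 FPKM without it. The treated libraries lay below the untreated ones with no overlap in each line. The fall was 0.26 ± 0.057 in the libraries labelled Molt-4 (adjusted p = 0.00178) and 0.58 ± 0.057 in Jurkat (adjusted p = 4.02e-06). The difference of 0.31 ± 0.081 between them was called (adjusted p = 0.0111), but not at equal totals without 7SL RNA (0.0583, range 0.00742 to 0.0583).

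PPOX, protoporphyrinogen oxidase, was the most variable of the 8 and was not called for chidamide. It had 21.2, 29.01 and 26.6 FPKM in treated and 19.4, 23.4 and 25.6 FPKM in untreated libraries labelled Molt-4. The level in Jurkat was 9.36, 9.45 and 8.92 FPKM with chidamide and 12.01, 7.39 and 13.9 FPKM without it. Treated and untreated libraries overlapped in both lines. The log2 differences were 0.16 (95% interval -0.25 to 0.56) in the libraries labelled Molt-4 and -0.20 (95% interval -0.60 to 0.21) in Jurkat. Without untreated Jurkat replicate 2, the low one, the Jurkat change was -0.44 and was called (adjusted p = 0.0201, range 0.0201 to 0.917), as was the difference between the lines of 0.60 (0.0325, range 0.0325 to 0.594). PPOX overlaps B4GALT3 on the opposite strand, whose level was 28.9 to 44.2 FPKM in the group means, so reads of both genes cannot be told apart if strand was not used.

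**Figure D3:**
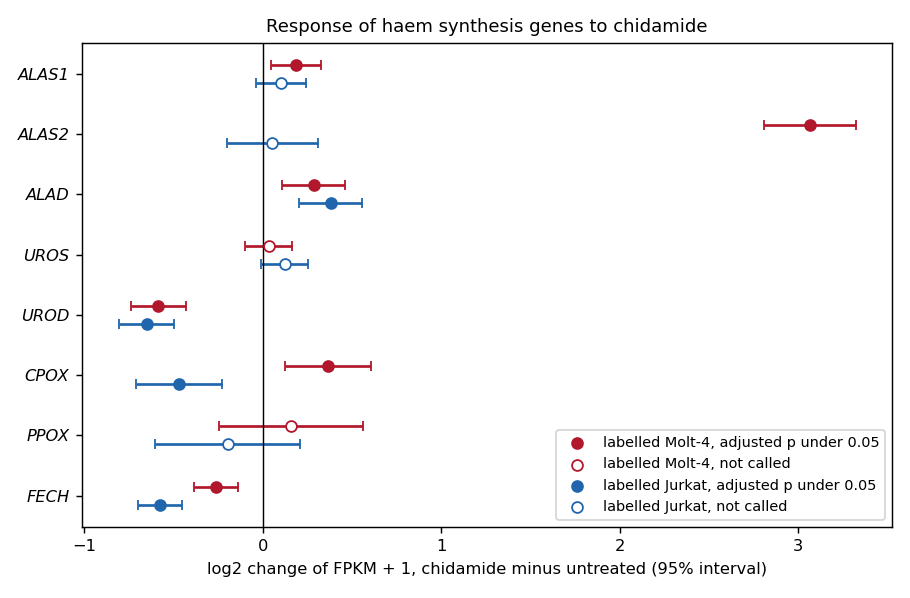
Log2 change of FPKM + 1 with chidamide for the 8 genes in the libraries labelled Molt-4 (red, upper of each pair) and in Jurkat (blue, lower), with 95% intervals from the limma fit and filled points for an adjusted p under 0.05. UROD and FECH lie left of 0 and ALAD right of 0 in both lines, CPOX lies on opposite sides, and ALAS2 stands at 3.07 in the libraries labelled Molt-4.

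Counted together, 4 of the 8 genes rose and 2 fell in the libraries labelled Molt-4, where 60.0% of all genes tested were called, 35.4% higher and 24.6% lower. In Jurkat 1 rose and 3 fell, beside 56.3% of all genes, 30.9% higher and 25.4% lower. Treated and untreated libraries did not overlap for 6 of the 8 genes in the libraries labelled Molt-4 and for 6 in Jurkat, and did not for 67.3% and 60.7% of all genes. A call by itself therefore sets no gene of the pathway apart. The differences between the responses were called for 3 of 8 genes, all with the higher change in the libraries labelled Molt-4, against 31.9% of all genes, 19.8% higher and 12.1% lower. The median log2 change of the 8 genes was 0.17 in the libraries labelled Molt-4 and -0.07 in Jurkat, beside 0.08 and 0.04 for all genes. In the libraries labelled Molt-4, 4903 of 13840 genes were called higher and 3401 lower. Quantile normalization turned this to 3540 and 5039, and the median of all genes to -0.10. Relative to the deposited median of all genes, the changes in the libraries labelled Molt-4 were 2.99 for ALAS2, 0.29 for CPOX, 0.21 for ALAD, 0.11 for ALAS1, -0.34 for FECH and -0.66 for UROD. These 6 genes kept their direction, and all but ALAS1 their call, under each scaling run. For the difference between the lines, 2745 genes were called higher and 1671 lower, against 2271 and 2678 under quantile normalization and 2254 and 2180 at equal totals without 7SL RNA.

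The lines also differed in how the pathway was filled. Without treatment UROD averaged 226 ± 7.12 FPKM in the libraries labelled Molt-4 and 57.0 ± 5.64 FPKM in Jurkat (SD, n = 3 each), a ratio of 3.96 (log2 difference 1.97 ± 0.071, limma adjusted p = 1.85e-10). PPOX averaged 22.8 ± 3.13 FPKM in the libraries labelled Molt-4 and 11.1 ± 3.33 FPKM in Jurkat (1.01 ± 0.19, limma adjusted p = 0.000423). UROS was lower in the libraries labelled Molt-4, with 34.1 ± 1.82 FPKM against 50.3 ± 1.53 FPKM in Jurkat (-0.55 ± 0.061, limma adjusted p = 6.11e-06). ALAS2 was present in the untreated libraries labelled Molt-4 and listed at 0 in untreated Jurkat. Of the 8 genes 4 were higher and 2 lower in untreated libraries labelled Molt-4, where 65.3% of all genes were called, 27.9% higher and 37.5% lower. The others were FECH, higher by 0.15 ± 0.057 (adjusted p = 0.0342), and ALAD, lower by 0.24 ± 0.081 (adjusted p = 0.019). The call of FECH did not hold when untreated Jurkat replicate 1 or 2 was left out, or any of the 3 untreated libraries labelled Molt-4, or at equal totals without 7SL RNA (adjusted p up to 0.229). For ALAD it did not hold when untreated Jurkat replicate 3 (0.056) or untreated Molt-4 replicate 3 (0.0564) was left out, within these groups alone or under median-of-ratios scaling or quantile normalization (up to 0.146). Under treatment 5 of the 8 genes were higher and 2 lower in the libraries labelled Molt-4 than in Jurkat (69.2% of all genes were called, 31.7% higher and 37.5% lower), with CPOX now among the higher ones at 47.9 ± 1.85 FPKM in the libraries labelled Molt-4 and 23.9 ± 1.78 FPKM in Jurkat (0.97 ± 0.11, limma adjusted p = 6.92e-06). Without treatment CPOX was not called between the lines (0.14 ± 0.11, adjusted p = 0.291), except without untreated Jurkat replicate 2 (0.0196, the lowest of the alternatives). Untreated ALAS1 was not called either (-0.13 ± 0.064, adjusted p = 0.0903), except at equal totals without 7SL RNA (0.028) and without untreated Molt-4 replicate 2 (0.0433). With treatment ALAS1 was not called (adjusted p = 0.515), except at equal totals without 7SL RNA (0.0292), with 25.5 ± 1.17 FPKM in treated libraries labelled Molt-4 and 26.4 ± 0.764 FPKM in treated Jurkat. Libraries of the lines did not overlap for 7 of the 8 genes with treatment and for 7 without it, and for 75.8% and 66.7% of all genes. These 2 comparisons share their libraries with those of chidamide.

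The order of the levels changed with the line and with treatment. In treated libraries labelled Molt-4 UROD was the highest, followed by ALAS2, FECH, CPOX and UROS, and PPOX, ALAS1 and ALAD overlapped at the low end. In untreated libraries labelled Molt-4 UROD was followed by FECH, CPOX and UROS, the last 2 overlapping, then by PPOX and ALAS1, also overlapping. ALAD came next by its mean and overlapped PPOX but not ALAS1, and ALAS2 was the lowest. In treated Jurkat FECH and UROS overlapped at the top, UROD and ALAD followed with overlap, and ALAS1, CPOX, PPOX and ALAS2 came below without overlap. In untreated Jurkat FECH was the highest, UROD and UROS overlapped, CPOX came next, ALAS1 and ALAD overlapped, and PPOX and ALAS2 came last. The FPKM of the 8 genes summed to 501 to 518 in treated and 465 to 487 in untreated libraries labelled Molt-4, and to 238 to 243 in treated and 286 to 291 in untreated Jurkat. As a share of this sum, ALAS2 made up 23.1% ± 1.16 in treated and 2.82% ± 0.619 in untreated libraries labelled Molt-4 (SD, n = 3 each). UROD made up 29.5% ± 0.594 in treated and 47.6% ± 0.667 in untreated libraries labelled Molt-4. In Jurkat UROD made up 14.9% ± 0.959 with chidamide and 19.7% ± 2.13 without it.

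Genes around the pathway were read in lists by role. Of all genes tested, 35.4% were called higher and 24.6% lower in the libraries labelled Molt-4, and 30.9% and 25.4% in Jurkat. These shares stand beside every list count from here on, and a count near them sets no list apart. Of the genes for mitochondrial transport and turnover (carriers, ABC transporters and the proteases CLPX and LONP1), 3 of 13 rose and 6 fell in the libraries labelled Molt-4, and 0 rose and 9 fell in Jurkat. Their medians were -0.15 and -0.39. SLC25A37, mitoferrin 1, the iron importer of red cell precursors, was at 125 ± 0.769 FPKM with chidamide and 41.1 ± 2.27 FPKM without it in the libraries labelled Molt-4 (1.59 ± 0.054, limma adjusted p = 3.86e-10). In Jurkat it fell to 18.3 ± 0.618 FPKM with chidamide, against 31.9 ± 0.806 FPKM without it (-0.77 ± 0.054, limma adjusted p = 2.22e-07), and the difference between the responses was 2.35 ± 0.076 (limma adjusted p = 2.67e-09). SLC25A39, a glutathione carrier, rose in the libraries labelled Molt-4 to 271 ± 9.76 FPKM with chidamide, against 158 ± 4.56 FPKM without it. TSPO, an outer membrane protein, fell there by 0.72 ± 0.12 (adjusted p = 0.000233), a call lost with a pseudocount of 0.1 (adjusted p = 0.153). ABCB10, an inner membrane transporter, fell in Jurkat to 33.0 ± 1.72 FPKM with chidamide, against 76.3 ± 1.61 FPKM without it. LONP1 fell in Jurkat by 0.94 ± 0.055 (adjusted p = 4.46e-08).

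Of the genes for haem breakdown and transport, 7 of 8 were tested. In the libraries labelled Molt-4 5 rose and 1 fell, and in Jurkat 5 rose and none fell. The inducible haem oxygenase gene HMOX1 was below the filter, at 0 to 0.34 FPKM in treated and 0 FPKM in untreated libraries labelled Molt-4, and 0 to 0.09 FPKM in treated and 0 to 0.03 FPKM in untreated Jurkat. BLVRA, a biliverdin reductase, was at 73.4 ± 3.21 FPKM with chidamide and 19.1 ± 0.329 FPKM without it in the libraries labelled Molt-4 (1.89 ± 0.068, limma adjusted p = 5.95e-10). SLC48A1, a haem transporter, rose there by 1.16 ± 0.11 (adjusted p = 2.93e-06), and ABCG2, an exporter of porphyrins, by 1.08 ± 0.13 (adjusted p = 1.9e-05) at 2.97 ± 0.421 FPKM with chidamide and 0.883 ± 0.191 FPKM without it. BLVRB, the other biliverdin reductase, led in Jurkat with 50.7 ± 2.87 FPKM with chidamide and 19.3 ± 1.48 FPKM without it (1.35 ± 0.062, limma adjusted p = 6.55e-09). At levels near 1 FPKM or below, ABCG2 and the choline and haem carrier gene FLVCR2 rose in Jurkat, ABCG2 with a log2 change of 0.68 ± 0.13 (adjusted p = 0.000787) and FLVCR2 with 0.68 ± 0.18 (adjusted p = 0.007), and both calls were lost under quantile normalization. Neither ABCG2 nor FLVCR2 would have passed the filter on low values without treated libraries. The medians of the list were 0.82 and 0.65, beside 0.08 and 0.04 for all genes.

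Iron supply genes went both ways. In the libraries labelled Molt-4 5 of 13 rose and 5 fell, and in Jurkat 4 rose and 3 fell. Without untreated Molt-4 replicate 3 the count of falls in the libraries labelled Molt-4 was 3. The ferritin heavy chain gene FTH1 was at 3545 ± 40.7 FPKM with chidamide and 2039 ± 33.6 FPKM without it in the libraries labelled Molt-4 (0.80 ± 0.052, limma adjusted p = 8.67e-08). STEAP3, a ferrireductase of endosomes, fell there by 0.54 ± 0.09 (adjusted p = 0.000246), and SLC40A1, the iron exporter ferroportin, rose by 0.46 ± 0.12 (adjusted p = 0.00541). In Jurkat NCOA4, the receptor for ferritin breakdown, rose by 0.59 ± 0.051 (adjusted p = 1.25e-06), IREB2, an iron regulatory protein, rose by 0.42 ± 0.094 (adjusted p = 0.00228) and the ferritin light chain gene FTL fell by 0.38 ± 0.054 (adjusted p = 7.91e-05). The 14 iron-sulfur assembly genes, which serve the same mitochondrial iron, had 2 that rose and 7 that fell in the libraries labelled Molt-4 and 3 that rose and 5 that fell in Jurkat. Without untreated Molt-4 replicate 3, 1 of them rose in the libraries labelled Molt-4. FDXR, ferredoxin reductase, rose by 1.09 ± 0.074 in the libraries labelled Molt-4 (adjusted p = 1.25e-07), while the chaperone gene HSPA9 fell by 0.62 ± 0.071 (adjusted p = 1.09e-05) and the ferredoxin gene FDX1L by 0.50 ± 0.074 (adjusted p = 9.51e-05). In Jurkat LYRM4, HSPA9 and FDX1L fell by 0.73 ± 0.092, 0.70 ± 0.071 and 0.64 ± 0.074 (adjusted p between 4.68e-06 and 3.06e-05).

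**Figure D4:**
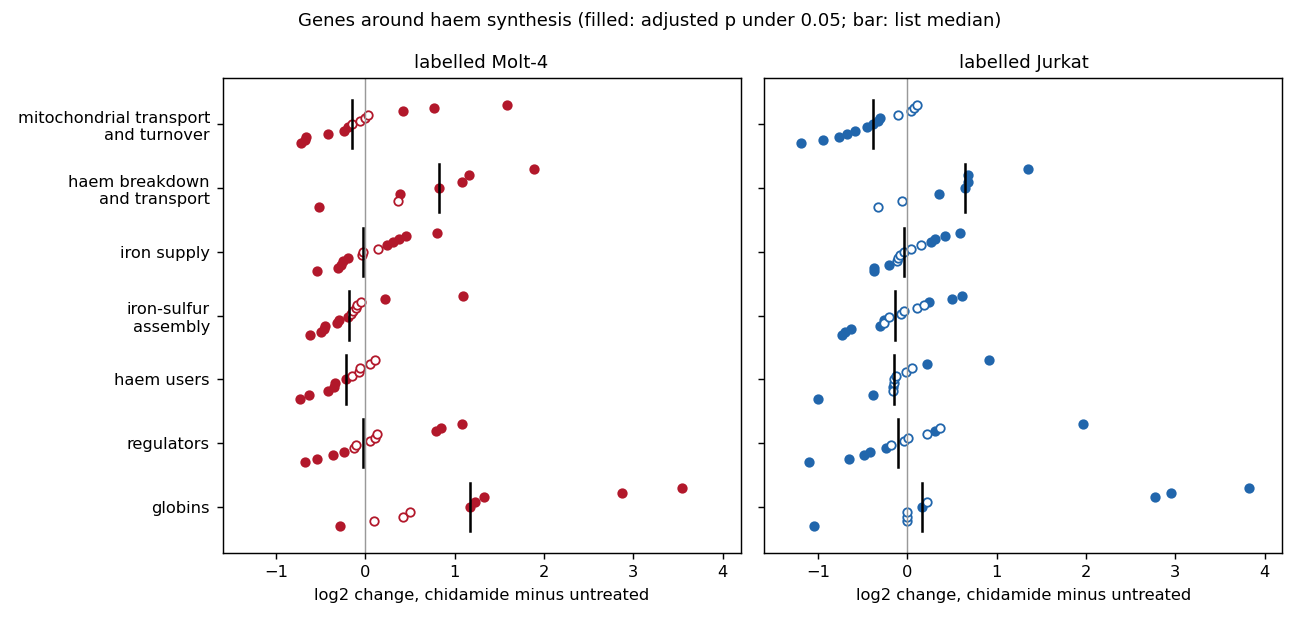
Log2 change with chidamide of the tested genes of 7 lists in the libraries labelled Molt-4 (left) and in Jurkat (right), filled for an adjusted p under 0.05, with a bar at each list's median. Transport genes have a median of -0.15 in the libraries labelled Molt-4 and -0.39 in Jurkat, and breakdown genes one of 0.82 and 0.65.

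Of the haem users, 11 of 12 were tested, and 0 rose and 6 fell in the libraries labelled Molt-4, while 2 rose and 3 fell in Jurkat. Without untreated Jurkat replicate 3, 7 of the haem users fell in Jurkat. Without untreated Molt-4 replicate 3, 1 rose and 4 fell in the libraries labelled Molt-4. CYC1, cytochrome c1 of the respiratory chain, fell to 158 ± 4.06 FPKM with chidamide, against 244 ± 3.57 FPKM without it, in the libraries labelled Molt-4 (-0.63 ± 0.051, limma adjusted p = 6.2e-07). In Jurkat CYC1 fell to 91.9 ± 2.33 FPKM with chidamide, against 185 ± 12.5 FPKM without it (-1.001 ± 0.051, limma adjusted p = 1.56e-08). SDHD, a haem-binding subunit of succinate dehydrogenase, fell by 0.41 ± 0.052 in the libraries labelled Molt-4 (adjusted p = 2.63e-05), and COX10, which makes haem o, by 0.38 ± 0.12 in Jurkat (adjusted p = 0.0181), a call lost without untreated Jurkat replicate 2. CYP51A1, a cytochrome P450 of sterol synthesis, fell by 0.73 ± 0.13 in the libraries labelled Molt-4 (adjusted p = 0.000354) and rose by 0.91 ± 0.13 in Jurkat (adjusted p = 7.1e-05). Its level was low in Jurkat, at 3.48 ± 0.834 FPKM with chidamide and 1.37 ± 0.274 FPKM without it. In the libraries labelled Molt-4 it was at 21.2 ± 1.65 and 35.8 ± 0.435 FPKM.

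Of the regulators, 12 were tested, of which 3 rose and 4 fell in the libraries labelled Molt-4 and 2 rose and 5 fell in Jurkat. One of the 2 in Jurkat was NFE2, an erythroid factor, which passed the filter only through the libraries labelled Molt-4. It was at 0.21 to 0.64 FPKM with chidamide and 0.04 to 0.14 FPKM without it in Jurkat, and the call was lost under 4 alternatives. GATA1 was at 158 ± 5.82 FPKM with chidamide and 86.9 ± 1.97 FPKM without it in the libraries labelled Molt-4 (0.85 ± 0.10, limma adjusted p = 1.87e-05). In Jurkat GATA1 was at 0.09 to 0.5 FPKM with chidamide and 0.04 to 0.13 FPKM without it. NFE2 rose by 0.79 ± 0.10 in the libraries labelled Molt-4 (adjusted p = 3.48e-05). KLF1 and TAL1, listed with them, were not called higher in either line. KLF1 was at 97.3 ± 0.953 FPKM with chidamide and 88.8 ± 4.74 FPKM without it in the libraries labelled Molt-4. TAL1 was at 22.6 ± 3.35 and 25.2 ± 9.12 FPKM there, which overlap. In Jurkat TAL1 was higher than there, at 94.8 ± 9.79 FPKM with chidamide and 72.95 ± 1.31 FPKM without it, which do not overlap. The fit shares 1 spread per gene over all 12 libraries. Untreated Molt-4 replicate 1, at 35.8 FPKM for TAL1 against 20.3 and 19.7 FPKM, therefore enters the error in Jurkat too. FOXO1, a factor that acts on the ALAS1 promoter in liver, rose in both, by 1.08 ± 0.094 in the libraries labelled Molt-4 (adjusted p = 1.02e-06) and by 1.97 ± 0.094 in Jurkat (adjusted p = 8.54e-09). Its untreated levels were low, at 0.127 ± 0.0503 FPKM in the libraries labelled Molt-4 and 0.47 ± 0.147 FPKM in Jurkat. FOXO1 passed the filter only through treated libraries. PPARGC1B, a coactivator of mitochondrial genes, fell in Jurkat by 1.10 ± 0.11 (adjusted p = 3.68e-06), and MYC by 0.65 ± 0.079 (adjusted p = 2.11e-05).

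Of the globins, whose haem these enzymes supply in red cells, 9 of 10 were tested, and 5 rose and 1 fell in the libraries labelled Molt-4. HBE1, embryonic epsilon globin, was at 4446 ± 73.8 FPKM with chidamide and 381 ± 15.2 FPKM without it (3.54 ± 0.092, limma adjusted p = 5.75e-11), a ratio of 11.7 beside 8.83 for ALAS2. HBG2, the most abundant, was at 14070 ± 221 FPKM with chidamide and 6000 ± 290 FPKM without it in the same libraries. HBG1 was at 3777 ± 63.8 and 1675 ± 39.5 FPKM. The 1 that fell was HBZ, embryonic zeta globin, at 555 ± 9.87 FPKM with chidamide and 677 ± 16.8 FPKM without it. HBB and HBD rose in the libraries labelled Molt-4 by 2.88 ± 0.85 and 1.33 ± 0.098 (adjusted p = 0.0117 and 2.49e-07). The call of HBB in that line was lost with a pseudocount of 0.1. HBB had 27.8, 25.7 and 26.5 FPKM in treated and 3.75, 2.01 and 2.74 FPKM in untreated libraries labelled Molt-4, which do not overlap. The fit uses 1 spread per gene over all 12 libraries, so the wide values of HBB in treated Jurkat enter its error in both lines. HBA1 and HBA2 did not overlap there either but were not called, and they too varied widely in treated Jurkat. In Jurkat 4 rose, at low levels, and 1 fell. The fall was that of HBQ1, at 10.9 ± 1.21 FPKM with chidamide and 23.7 ± 4.61 FPKM without it. One of the 4 that rose was HBG2, which passed the filter only through the libraries labelled Molt-4. It was at 0.03 to 0.18 FPKM with chidamide and listed at 0 without it in Jurkat, and lost its call under 6 alternatives. HBA1 and HBA2, which are near-identical copies, averaged 14.5 and 26.0 FPKM with chidamide and 0.63 and 0.353 FPKM without it in Jurkat. Treated Jurkat replicate 1 was far below its fellows, at 3.38 FPKM for HBA1 (against 17.6 and 22.65) and 3.51 FPKM for HBA2 (against 37.8 and 36.7). HBB had 0, 18.2 and 20.2 FPKM in treated and 0, 0.28 and 0 FPKM in untreated Jurkat libraries, and its call was lost without treated Jurkat replicate 2 or 3 and within these groups alone. ALAS2 stayed at 0.07 FPKM or less in the same Jurkat libraries.

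The genes whose profiles lay nearest to those of the enzymes were found among 10102 tested genes with a mean of at least 5 FPKM, by the root mean square difference of log2 values centred on each gene over 12 libraries. For ALAS2 they were CTSL, TGM2 and IGFBP4, at 0.394, 0.417 and 0.423, which is a loose match. CTSL, the cathepsin L gene, was at 73.3 ± 1.17 FPKM in treated and 17.2 ± 0.346 FPKM in untreated libraries labelled Molt-4 and was listed at 0 in Jurkat. For ALAS1 they were ZBTB39, ARF5 and XPA at 0.0568 to 0.0582, all genes that hardly varied. UROD lay nearest to TXNRD2, a mitochondrial thioredoxin reductase gene, at 0.145, which averaged 20.5 FPKM in treated and 29.1 FPKM in untreated libraries labelled Molt-4 and 3.78 FPKM in treated and 6.3 FPKM in untreated Jurkat. CPOX lay nearest to RUSC1 (0.108), FECH to DNAJC9 (0.0562), ALAD to CCDC130 (0.057), UROS to CHMP4A (0.0573) and PPOX to ALDH1A2 (0.184). This likeness is a description over libraries of 4 groups and carries no test.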

How the data were processed

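RNA sequencing libraries of 2 T-ALL lines with and without chidamide were used, in 4 groups of 3, grouped by their titles. J in a title was taken to be Jurkat and M to be Molt-4, the lines of the growth protocol. The deposited values are FPKM per gene by symbol, made by the authors. Per the submitters' processing notes STAR, HTSeq and DESeq2 were used with hg19. Versions, strand setting and the steps from reads to FPKM are not given in the sources used here. All 12 columns were used.

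Depth is unknown. Of 19110 low values, 30.6% lay within 0.15 of a whole multiple of the gene's smallest value, against 29.0% to 30.1% in 10 draws of random steps. The check took an equal step in every library, though steps differ with library size. It could not decide, and whole reads were not recovered. FPKM at 0 may be a failed estimate and are called listed at 0.

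Genes with FPKM of at least 1 in at least 3 libraries were kept (13840). limma 3.58.1 in R 4.3.3 fitted log2(FPKM + 1) with 1 mean per group over all 12 libraries (lmFit, eBayes with trend, 8 residual degrees of freedom, 11.8 after moderation). P-values are two-sided, adjusted by Benjamini-Hochberg over all genes of a comparison and called under 0.05. The model was tested on simulated data. The comparisons were chidamide in each line, the difference of responses (Molt-4 minus Jurkat), and Molt-4 against Jurkat without and with treatment.

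The members, lists and tests were chosen with earlier results of these data known. Named were all 8 enzymes, up to 3 called genes per related list and line with the largest change, the nearest profiles, and markers. Markers with values were picked after the data were seen, as were HMOX1, HBA1, HBA2, HBG1, HBG2, HBQ1, HBZ, KLF1, TAL1 and AHSP. One listed regulator, 1 listed B-cell marker and 2 listed erythroid markers are not reported here, and counts and sums are over the other genes of each list. The planned comparison of the ALAS1 and ALAS2 proteins was not made. The alternatives were a pseudocount of 0.1, no filter, FPKM of at least 5, median-of-ratios scaling, quantile normalization, equal totals without RN7SL1 and RN7SL2, only the groups compared, robust empirical Bayes, a replicate block and each library left out.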

Additional observations from a re-analysis of the deposited data

Results flagged for a closer look

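The response to chidamide differed between the lines for 3 of the 8 enzyme genes, by the test of the difference itself (limma, Molt-4 minus Jurkat), beside 31.9% of all genes tested, so the count is near that share. The difference was 3.01 on the log2 scale for ALAS2. It restates the change in the libraries labelled Molt-4, since Jurkat was at or near 0 FPKM throughout, and it does not compare 2 responses. For CPOX the difference was 0.83, a rise in the libraries labelled Molt-4 against a fall in Jurkat. For FECH it was 0.31, a smaller fall in the libraries labelled Molt-4 than in Jurkat. Erythroid marker genes differ between the same libraries, and their part in these differences was not tested.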

How the results depend on the processing

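Of 832 values of the enzymes under an alternative, 800 kept their direction and side of the threshold, 9 passed it newly and 18 lost it. The 5 that turned were not called: UROS with chidamide in the libraries labelled Molt-4 was -0.018 under median-of-ratios scaling and -0.0075 to 0.0723 with a library left out, the difference of responses for UROD was -0.0095 at equal totals without 7SL RNA and -0.0037 to 0.137 with a library left out, and ALAS1 between treated lines was 0.04 under median-of-ratios scaling. In Jurkat 2 enzymes rose under quantile normalization and 3 at equal totals without 7SL RNA, against 1. Between untreated lines 1 enzyme, against 2, was lower under median-of-ratios scaling, quantile normalization and within the groups compared, and 1 to 3 with a library left out, with 3 also at equal totals without 7SL RNA. Genes with a lower response in Molt-4 numbered 2678 under quantile normalization, against 1671. The cause was not tested.

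Same-numbered libraries did not deviate together (r of deviations between -0.0858 and 0.0408). This does not exclude that they were grown or handled together, and the main fit used no pairing. A replicate block gave 4207 higher and 3473 lower genes in Jurkat and changed no call of an enzyme. Depth is unknown, so the counting error of low values such as ALAS2 in Jurkat could not be estimated and may be large.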
